A study of Mus musculus with 14 samples.

Results

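Kinesins are the motor proteins that walk along or take apart microtubules, and tubulins are the proteins of which microtubules are built. The genes described here are the 55 of 21878 rows in the gene tables whose symbol starts with Kif or with Tuba, Tubb or Tubg and a number. By role they were 12 mitotic kinesins, 10 kinesins of the cilium and centriole, 15 other interphase kinesins, 7 alpha, 8 beta and 2 gamma tubulins. The last was Kif1bp (Kifbp in RefSeq), which binds kinesins and is no motor. Of the 55, 50 had enough counts to be tested. Kif2b, Tuba3a and Tuba3b had 0 counts in all libraries, and Kif6 and Tubb1 were too low. Of the 50 tested, 7 had a mean under 1 CPM (counts relative to library size), and any change in those rests on few reads.

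RNA was sequenced from C57BL/6 mouse liver cells that the labels call hepatocytes, in 14 libraries that formed 7 groups of 2. The groups were fresh cells right after isolation (FH), fresh Yap-/- cells (FH Yap-/-), cells kept in BM for 1 day (BM 1D), for 3 days (BM 3D) or for 3 weeks (BM 3W), Yap-/- cells kept in BM for 3 weeks (BM 3W Yap-/-) and cells kept in LBDXL for 3 weeks (LBDXL 3W). The labels do not explain BM or LBDXL, how the Yap-/- animals or cells were made, or whether a group's libraries are from different animals or cultures. All p-values therefore reflect no more than how these samples vary, which may be technical. The study's title places it on tension, the co-activator YAP and the upkeep of hepatocyte functions in culture.

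During cell division a set of kinesins that is otherwise little transcribed builds the spindle, moves chromosomes and completes cytokinesis. Interphase kinesins carry vesicles, organelles and ciliary cargo. Alpha and beta tubulin pair to form the polymer and are each encoded by several genes (isotypes), of which cells use different mixtures, while gamma tubulin starts new microtubules. In the resting adult liver, division is rare.

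Many genes transcribed late in the cell cycle carry TTTGAA, the core of the cell cycle genes homology region (CHR), near their start. The promoters of the mitotic kinesins are shown because these genes moved together in the libraries. RefSeq promoter windows of 300 bases (250 before to 50 after the start, GRCm38.p6) were at hand for 46 of the 55 genes, and both strands were searched for TTTGAA. Of 10 tested mitotic kinesins with a window 9 held it, the exception being Kif18a. Among all genes with a window the share was 20.2%, and among those tested 14.8%. For 7 of the 10 it lay within 50 bases of the start, against 3.88% of the genes tested. The 9 stretches follow on the gene's strand, 5′ to 3′, with the match in capitals (TTCAAA where it reads on the other strand). For Kif11 80 bases are given, with a CCAAT on the other strand, ATTGG, also in capitals.
Kif11, chr19:37376302-37376381, plus strand: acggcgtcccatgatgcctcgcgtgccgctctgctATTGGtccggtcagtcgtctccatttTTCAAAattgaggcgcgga
Kif2c, chr4:117178858-117178887, minus strand: ccaggctgctctTTCAAAcctgagtaatgc
Kif4, chrX:100626072-100626101, plus strand: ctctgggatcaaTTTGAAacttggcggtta
Kif14, chr1:136467608-136467637, plus strand: ggaggtcctgtcTTTGAAgtctgcagtgtc
Kif15, chr9:122951050-122951079, plus strand: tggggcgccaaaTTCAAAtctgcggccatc
Kif18b, chr11:102925104-102925133, minus strand: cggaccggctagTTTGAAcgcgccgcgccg
Kif20b, chr19:34922353-34922382, plus strand: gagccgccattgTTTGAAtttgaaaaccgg
Kif22, chr7:127042420-127042449, minus strand: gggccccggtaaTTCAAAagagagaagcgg
Kif23, chr9:61946780-61946809, minus strand: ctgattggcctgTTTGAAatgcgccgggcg

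The match began 19 bases before the start in Kif11 and Kif15, 17 before in Kif22, and 2, 3, 7 and 19 bases after it in Kif23, Kif18b, Kif20b and Kif4. It lay 103 bases before the start in Kif2c and 228 before in Kif14. The start used for Kif2c and for Kif14 lies far inside the gene. The RefSeq interval of Kif2c reaches to 117182624 on chromosome 4, and that of Kif14 begins at 136466301 on chromosome 1. The starts used for Kif18b, Kif20b, Kif22 and Kif23 also lie inside the RefSeq interval, but close to its edge. All distances are counted from the start used. In Kif20b a second TTTGAA followed directly. Kif15 and Kif22 held a further match 234 and 215 bases before the start, and for these genes the match nearest the start is printed. Among interphase kinesins 3 of 19 and among tubulins 1 of 11 held TTTGAA, and of 23 other spindle genes 17 did. CCAAT, the element of the factor NF-Y, stood in 6 of the 10 mitotic windows against 42.8% of the genes tested. GGAATG, the element read by the TEAD partners of YAP, stood in 0 of the 10 against 14.8%. A match is a description of the letters and no evidence of binding.

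Levels are TMM-scaled CPM, read counts relative to library size, given for library 1 and then library 2 of a group. Levels of different genes are set side by side only in FPKM, which accounts for gene length. Log2 fold changes carry ± their standard error, and "rose" and "fell" mark an adjusted p under 0.05 over the 14100 genes tested with edgeR's quasi-likelihood method. Total counts ran from 15501005 to 21220365 per library. Scaling by total counts alone moved the median log2 fold change of all genes against FH by 0.92 in BM 1D, 0.94 in BM 3D, 1.29 in BM 3W and 0.47 in LBDXL 3W and by -0.82 and -0.64 in LBDXL 3W and BM 3W Yap-/- against BM 3W, so small differences depend on the scaling. Yap1, the targeted gene, stood at 23.1 and 26.5 CPM in FH Yap-/- against 87.6 and 97.6 in FH, and at 6.66 and 7.75 in BM 3W Yap-/- against 80.2 and 95.5 in BM 3W.

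The hepatocyte label was checked with 7 markers, none of which was at 0 in both libraries of any group. Their summed level ran from 32540 to 234500 CPM in 13 libraries and was 3363 in BM 3W 2. Most of that sum was Alb in every library (29180 of 32540 CPM in BM 3W 1). Ttr, Serpina1a, Hnf4a, Cps1 and Asgr1 were below FH in every culture library. Cps1 stood at 13500 and 13420 CPM in FH, 208 and 313 in BM 1D and 72.5 and 9.07 in BM 3W. In BM 3W the 10 stellate cell and fibroblast markers summed to 10670 and 14690 CPM against 28.8 to 539 elsewhere, and the 7 cholangiocyte markers to 4431 and 5133 against 14.8 to 589. The Kupffer cell and macrophage markers summed there to 895 and 866 CPM against 2.17 to 348 elsewhere. Of the 348, in BM 1D 2, Cd68 held 312.5. Adgre1, Cd68, Csf1r, Marco, C1qa and Cd5l were higher in BM 3W than in FH. The Kupffer cell marker Clec4f went the other way, from 27.3 and 17.1 CPM in FH to 0.240 and 0.0898 in BM 3W. The lymphocyte markers summed in BM 3W to 51.9 and 28.4 CPM against 0 to 6.69 elsewhere. Nearly all of that lymphocyte sum in BM 3W was Ptprc (51.86 and 28.36 CPM), while Cd3e, Cd3g and Ms4a1 were at 0 in both libraries. Endothelial markers differed within LBDXL 3W, at 138 and 3.63 CPM. The library pairs of the cultures differed far more than those of FH (chi-square per degree of freedom 68 to 235 in cultures and 5.49 in FH). Bulk libraries cannot tell fewer cells of a type from less RNA per cell. The part of these cells and libraries in the results below was not tested, and values without a library are given where they differ.

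Of the 50 tested genes, 21 were called in BM 1D against FH (17 rose, 4 fell), where 43.8% of all genes were called. In BM 3D 28 rose and 3 fell (31 called, 40.5% of all genes), in BM 3W 33 rose and 5 fell (38 called, 59.1%) and in LBDXL 3W 17 rose and 1 fell (18 called, 21.3%). These 4 comparisons share the FH libraries. From BM 1D to BM 3D 10 rose and 3 fell (13 called, 5.26%), and from BM 3D to BM 3W 5 rose and 8 fell (13 called, 24.4%). Against BM 3W, which both comparisons share, 10 rose and 22 fell in LBDXL 3W (32 called, 44.8%), and 7 rose and 13 fell in BM 3W Yap-/- (20 called, 31.6%). In FH Yap-/- against FH 1 rose (0.943%). The 2 groups of a called gene never overlapped in level, which a call with 2 libraries a group nearly requires, so it is no further support. Single libraries moved some of these counts by over 1.5 times: LBDXL 3W against FH had 10 calls without FH 1 and 9 without FH 2, and BM 3D against BM 1D had 1 call without BM 1D 1, 8 when BM 1D 2 was left out and 6 when BM 3D 1 was. From BM 3D to BM 3W there were 7 without BM 3W 1 and 5 without BM 3W 2. Against BM 3W, LBDXL 3W had 21 without BM 3W 1 and 18 without LBDXL 3W 2, and BM 3W Yap-/- had 10 without BM 3W 1 or without either of its own libraries. By total counts the split of rises and falls was 26 to 2 in BM 1D and 45 to 1 in BM 3W against FH, 8 to 4 from BM 3D to BM 3W, 4 to 33 in LBDXL 3W and 5 to 22 in BM 3W Yap-/- against BM 3W.

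**Figure D1:**
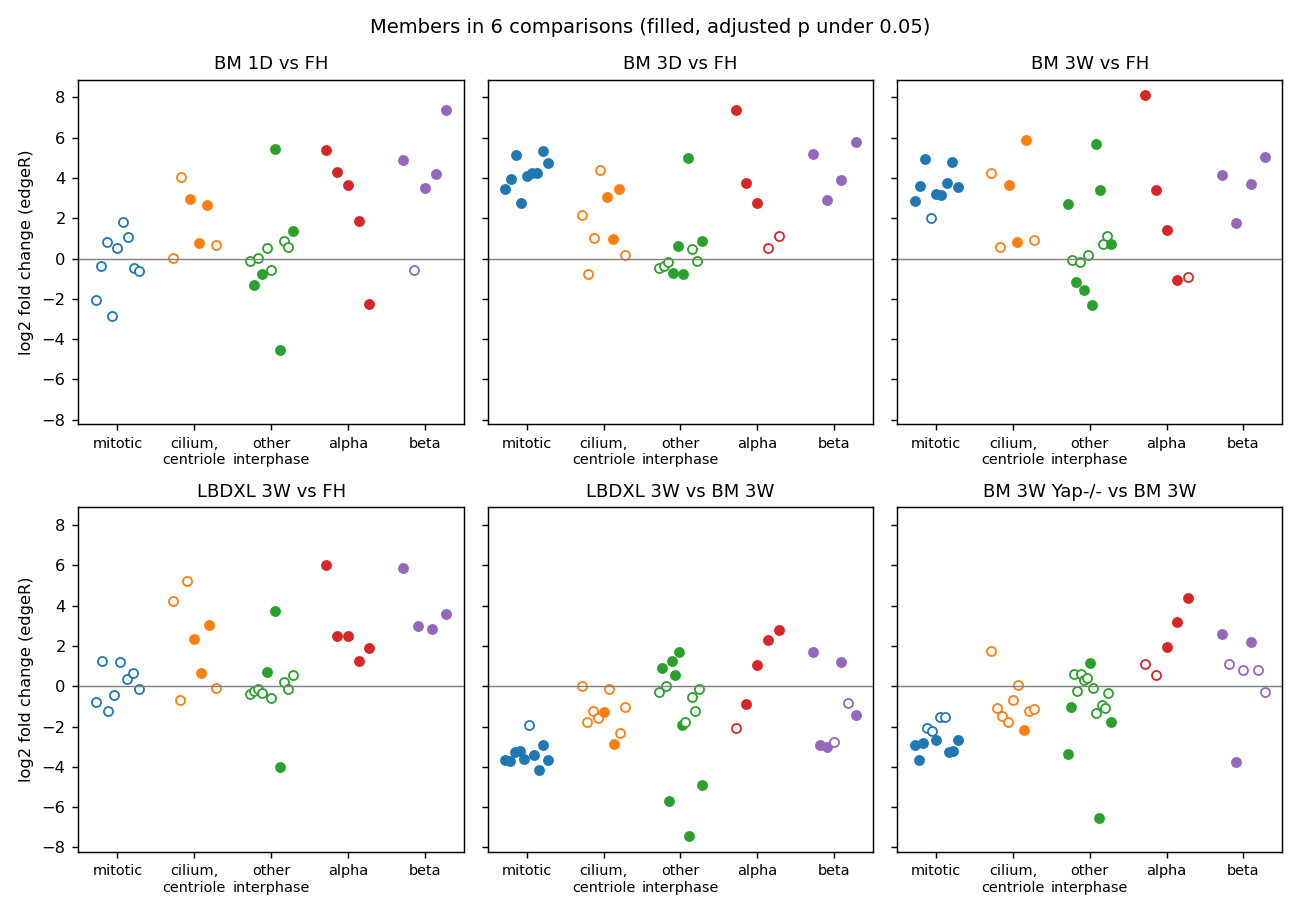
Log2 fold changes (vertical axis, edgeR) of the kinesins and the alpha and beta tubulins by role in 6 comparisons. Each point is a gene, filled where the adjusted p was under 0.05 and open otherwise, and genes with 3 or fewer counts in a group are not drawn (11 of them in BM 3W against FH, where 36 are drawn). Mitotic kinesins lie well above 0 in BM 3D and BM 3W against FH and below 0 in LBDXL 3W and BM 3W Yap-/- against BM 3W, while alpha and beta tubulins lie above 0 in nearly all cases against FH.

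The mitotic kinesins were near the limit of detection in fresh cells, high at 3 days in BM culture, still raised at 3 weeks, and low again at 3 weeks in LBDXL and in Yap-/- BM cultures. Summed over the 11 tested, they reached 7.32 and 6.73 CPM in FH, 6.21 and 5.84 in FH Yap-/-, 10.7 and 8.80 in BM 1D, 243 and 39.2 in BM 3D, 107 and 54.5 in BM 3W, 11.95 and 4.41 in LBDXL 3W and 15.8 and 13.8 in BM 3W Yap-/-. The 4 libraries of BM 3D and BM 3W lie above all others, and they differ within each pair. Every one of the 11 was highest in BM 3D 1 and next highest in BM 3W 1. The ratio of BM 3D 1 to BM 3D 2 ran from 4.93 (Kif18a) to 8.69 (Kif18b), and that of BM 3W 1 to BM 3W 2 from 1.26 (Kif18a) to 2.49 (Kif14).

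**Figure D2:**
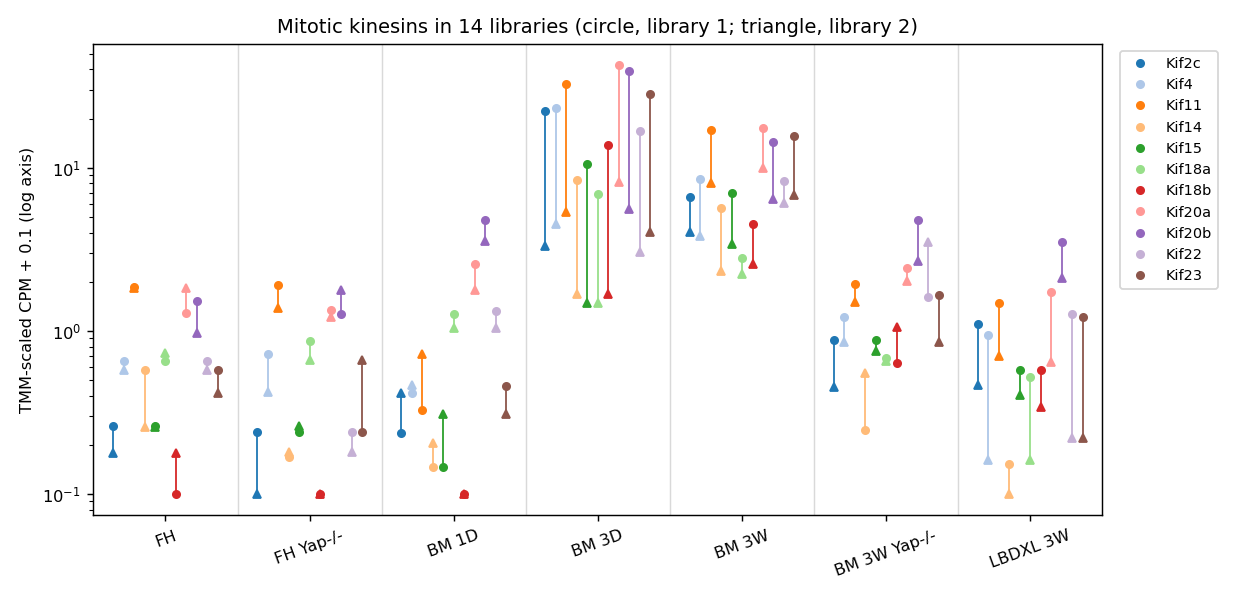
Level of each tested mitotic kinesin (TMM-scaled CPM + 0.1, log axis) in the 14 libraries, with a circle for library 1 and a triangle for library 2 of each group. All 11 genes are highest in BM 3D 1, and library 1 lies above library 2 for all 11 in both BM 3D and BM 3W.

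Kif11, the motor that slides spindle microtubules apart (chromosome 19, 37376382 to 37421863), stood at 1.75 and 1.74 CPM in FH, 0.226 and 0.625 in BM 1D, 32.5 and 5.22 in BM 3D, 17.0 and 7.996 in BM 3W, 1.37 and 0.604 in LBDXL 3W and 1.85 and 1.41 in BM 3W Yap-/-. Every BM 3D and BM 3W library lies above all others. Its log2 fold change against FH was 3.43 ± 0.81 in BM 3D (adjusted p = 0.0066) and 2.83 ± 0.80 in BM 3W (0.0107), and each call was lost without FH 1, FH 2 or library 1 of the culture. Kif20a, which carries the chromosomal passenger complex to the central spindle, went from 1.19 and 1.74 CPM in FH to 2.48 and 1.67 in BM 1D, 42.3 and 8.08 in BM 3D, 17.5 and 9.88 in BM 3W, 1.64 and 0.544 in LBDXL 3W and 2.33 and 1.91 in BM 3W Yap-/-. As for Kif11, the BM 3D and BM 3W libraries lie above all others, while in BM 1D Kif20a was not below FH. The log2 rises over FH were 4.10 ± 0.77 in BM 3D (adjusted p = 0.0019) and 3.21 ± 0.75 in BM 3W (0.00376). Kif23, the motor of centralspindlin at the midbody, was at 0.477 and 0.317 CPM in FH, 28.1 and 3.94 in BM 3D and 15.5 and 6.71 in BM 3W.

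Kif2c, which takes apart microtubules at kinetochores, had 3 counts in FH in all, and its ratio to FH was 114 in BM 3D (95% counting interval 38.7 to 553) and 43.1 in BM 3W (14.6 to 210). Such intervals cover counting error only. Kif18b, a depolymerase of astral microtubules, went from 0 counts in BM 1D to 13.7 and 1.58 CPM in BM 3D, at least 52.4-fold higher. Kif15, a spindle motor that can stand in for Kif11, rose over FH by 5.16 ± 1.06 in BM 3D (adjusted p = 0.00305) and 4.95 ± 1.05 in BM 3W (0.00216). Among the chromosome-bound motors Kif4 rose by 4.72 ± 1.02 and 3.53 ± 0.99 in the same comparisons, and Kif22 by 4.24 ± 1.00 and 3.76 ± 0.99. Kif14 and Kif20b, both of cytokinesis, rose by 3.94 ± 1.00 and 4.26 ± 0.87 in BM 3D. Kif18a, which dampens chromosome movement, showed the smallest rise in BM 3D (2.77 ± 0.83) and did not pass in BM 3W (2.001 ± 0.82, adjusted p = 0.0552).

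Thus 11 of 11 rose in BM 3D against FH (22.5% of all genes rose), with a median log2 fold change of 4.26 (all genes, 0.17), and 10 of 11 in BM 3W (33%), with a median of 3.58. Without BM 3D 1, or without FH 2, 7 passed in BM 3D, where Kif11, Kif14, Kif18a and Kif22 were lost. Without FH 2, 5 passed in BM 3W. From BM 1D to BM 3D 8 rose (3.67%), namely Kif2c, Kif4, Kif11, Kif14, Kif15, Kif18b, Kif20a and Kif23. None passed in a fit on these 4 libraries alone or without BM 1D 1, 4 passed without BM 1D 2 and 2 without BM 3D 1. In BM 1D against FH 0 passed by edgeR, 1, Kif11, had an unadjusted p under 0.05 (log2 -2.04 ± 0.89), and 1 was called by DESeq2. From BM 3D to BM 3W 0 passed, 0 had an unadjusted p under 0.05 and DESeq2 called 0, while the median was -0.77.

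At 3 weeks 10 of 11 mitotic kinesins were lower in LBDXL 3W than in BM 3W (23.7% of all genes fell), with a median of -3.62, and without LBDXL 3W 2 3 passed. Kif11 fell by 3.64 ± 0.83 (adjusted p = 0.00514) and Kif20a by 3.63 ± 0.76 (0.00322), and Kif20b did not pass (-1.93 ± 0.77, 0.0623). Against FH 0 of 11 passed in LBDXL 3W by edgeR, 0 at an unadjusted p under 0.05 and 0 by DESeq2. In BM 3W Yap-/- 7 of 11 were below BM 3W (16.6% of all genes fell), with a median of -2.68. Kif2c, Kif4, Kif11, Kif14, Kif15, Kif20a and Kif23 passed, with log2 differences between -2.68 and -3.67, and Kif18a, Kif18b, Kif20b and Kif22 did not. Without BM 3W 1, or without either BM 3W Yap-/- library, 0 of the 11 passed. Between FH Yap-/- and FH 0 of the 11 passed by edgeR, 0 had an unadjusted p under 0.05 and DESeq2 called 0. Whether the Yap-/- difference in culture departed from that in fresh cells was tested as an interaction, in which 0 passed, 2 (Kif11 and Kif20a) had an unadjusted p under 0.05 and DESeq2 called 1.

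Other spindle genes, a list of 26 that includes Cdk1, Aurkb, Plk1 and Top2a, ran alongside. In BM 3D against FH 26 rose, in BM 3W 25, and in LBDXL 3W against BM 3W 26 fell. In BM 3W Yap-/- against BM 3W 18 of them fell. In BM 3D the stellate and fibroblast markers summed to 94.3 and 266 CPM, the cholangiocyte markers to 128 and 589, the endothelial markers to 123 and 196 and the Kupffer cell and macrophage markers to 80.6 and 57.9. The part of these cells in the levels of the mitotic kinesins was not tested.

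Among kinesins of the cilium and centriole, the kinesin-2 genes Kif3a, Kif3b and Kif3c rose in all 4 cultures without loss of Yap. Kif3a, a subunit of the motor of ciliary transport (chromosome 11, 53565701 to 53604248), stood at 3.34 and 3.72 CPM in FH, 6.83 and 5.44 in FH Yap-/-, 26.9 and 27.3 in BM 1D, 30.8 and 27.6 in BM 3D, 48.4 and 40.04 in BM 3W, 23.6 and 12.3 in LBDXL 3W and 32.1 and 22.5 in BM 3W Yap-/-. All cultures lie above all fresh libraries. It rose over FH by 2.94 ± 0.33 in BM 1D (adjusted p = 7.77e-05), 3.65 ± 0.34 in BM 3W (1.44e-05) and 2.34 ± 0.33 in LBDXL 3W (8.36e-04). Its partner Kif3b changed less, from 29.5 and 25.8 CPM in FH to between 40.5 and 56.0 in the cultures, with log2 rises of 0.67 to 0.97, of which those in BM 1D (without BM 1D 1 or FH 2) and LBDXL 3W (without either library of FH, FH Yap-/- or LBDXL 3W) were lost. Kif3c, the alternative partner of Kif3a, stood at 0.716 and 0.317 CPM in FH, 1.93 and 1.84 in FH Yap-/-, 3.16 and 3.33 in BM 1D, 6.68 and 4.53 in BM 3D, 28.2 and 34.1 in BM 3W, 6.08 and 2.48 in LBDXL 3W and 7.78 and 5.89 in BM 3W Yap-/-. The BM 3W libraries lie apart from the rest. Kif3c rose by 5.90 ± 0.55 in BM 3W against FH (adjusted p = 1.48e-05), fell by 2.86 ± 0.45 in LBDXL 3W and by 2.19 ± 0.43 in BM 3W Yap-/- against BM 3W (adjusted p = 6.45e-04 and 0.00426).

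The kinesin-2 accessory subunit Kifap3, no member of the set, rose with them in BM 3W by 1.65 ± 0.27. Kif7, which acts at the ciliary tip in Hedgehog signalling, had 1 count in FH in all and 3.09 and 3.56 CPM in BM 3W, a ratio of 84.2 (95% counting interval 15 to 3.34e+03). Kif17, a kinesin-2 that works as a homodimer, had 0 counts in FH, 1.49 and 1.09 CPM in BM 1D, at least 5.43-fold above FH, and at most 0.437 in later cultures. Kif27 had 0 counts in FH and 0.617 and 0.779 CPM in BM 3W (at least 2.93-fold), a call lost without either FH library. Kif9, Kif19a and Kif24 passed in no comparison. Of 9 tested, 4 rose in BM 1D, 3 in BM 3D, 5 in BM 3W and 3 in LBDXL 3W against FH, and 0 fell in any of the 4. Over all genes 23.6, 22.5, 33 and 11.7% rose in that order, and 20.2, 17.9, 26.1 and 9.6% fell. The 4 motile cilium markers in the tables summed to 9.16 and 11.2 CPM in BM 3W and to at most 3.01 elsewhere.

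The other interphase kinesins split into motors that fresh cells already had and motors that were near 0 in them. By FPKM, Kif1c was first among all kinesins in every library (19.2 and 20.6 FPKM in FH), Kif1b second in fresh cells (13.1 and 13.0) and Kif5b second in cultures. Kif1b, a motor of vesicles and mitochondria, fell from 462 and 470.4 CPM in FH to 287 and 262 in BM 1D, 310.5 and 266 in BM 3D and 162 and 152 in BM 3W, and stood at 361 and 388 in LBDXL 3W. The fall in BM 3W (1.57 ± 0.26, adjusted p = 4.45e-04) was lost by total counts and on FPKM, and in BM 1D and BM 3D its sign turned there. Kif1c stood at 242 and 259 CPM in FH and between 277 and 450.0 in the cultures. It passed in BM 3D (0.60 ± 0.21) and LBDXL 3W (0.72 ± 0.21) against FH, both lost without any of several single libraries, those of FH and FH Yap-/- among them, and its difference of 0.56 ± 0.21 between LBDXL 3W and BM 3W turned negative by total counts and on FPKM. Kif5b, the ubiquitous kinesin-1 heavy chain, rose from 107 and 104 CPM in FH to 298 and 239 in BM 1D (1.35 ± 0.21, adjusted p = 6.01e-04), 197 and 187 in BM 3D and 189 and 154 in BM 3W, and the calls in BM 3D and BM 3W were lost without either FH library, and that in BM 3W also without BM 3W 1.

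Kif21a, a motor that pauses microtubule growth, was lower the longer the BM culture lasted, with 132 and 136 CPM in FH, 88.5 and 90.1 in BM 1D, 83.0 and 73.3 in BM 3D and 30.0 and 23.9 in BM 3W. It was higher in BM 3W Yap-/- (74.6 and 44.8) and LBDXL 3W (85.7 and 91.3). It fell by 2.32 ± 0.24 in BM 3W against FH (adjusted p = 2.69e-05), also by total counts and on FPKM, while its fall in BM 3D (0.78 ± 0.23) turned to a rise under both. Kif21a did not pass in BM 1D against FH or from BM 1D to BM 3D. Its close relative Kif21b (chromosome 1, 136131390 to 136178001) moved the other way, from 0.875 and 0.791 CPM in FH to 11.0 and 62.0 in BM 1D, 21.2 and 32.0 in BM 3D, 41.7 and 43.0 in BM 3W, 10.8 and 11.2 in LBDXL 3W and 47.5 and 31.5 in BM 3W Yap-/-. The BM 1D libraries differ widely, yet all cultures exceed the fresh libraries. The log2 rise was 5.66 ± 0.75 in BM 3W (adjusted p = 1.04e-04) and 3.71 ± 0.72 in LBDXL 3W (0.00495, lost without FH 2). Kif13b, a carrier of membrane proteins, fell in BM 1D (1.31 ± 0.31, lost without BM 1D 1) and BM 3W (1.14 ± 0.30) against FH, and the latter turned to 0.15 by total counts and lay above 0 on FPKM.

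**Figure D3:**
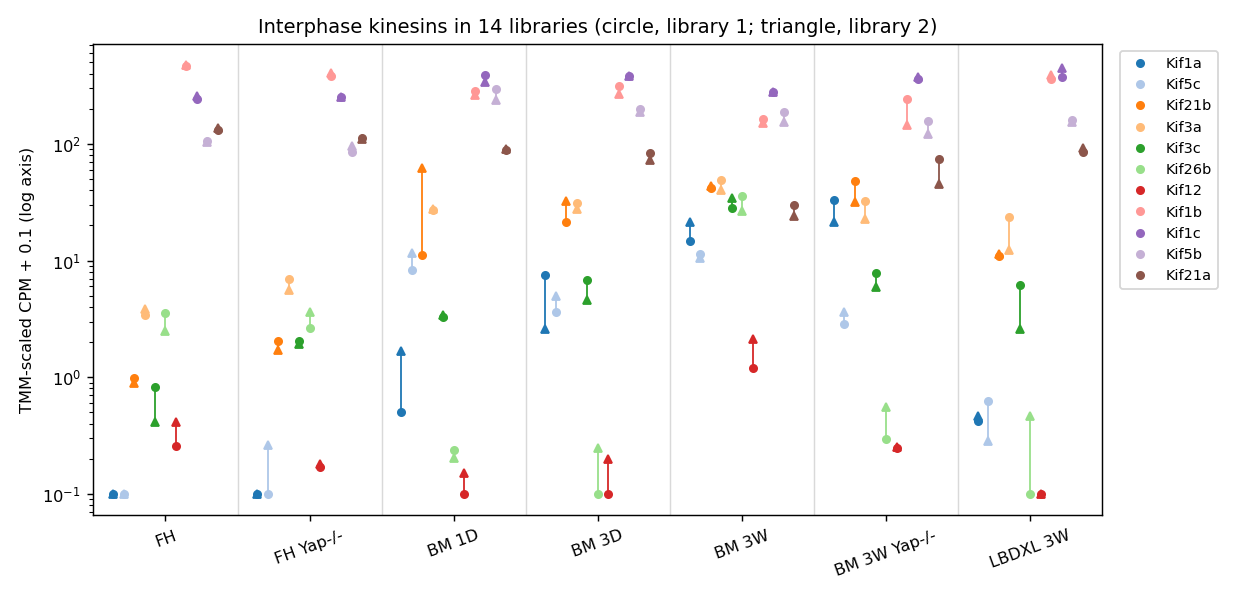
Level of 11 interphase kinesins (TMM-scaled CPM + 0.1, log axis) in the 14 libraries, with a circle for library 1 and a triangle for library 2. Kif1b, Kif1c, Kif5b and Kif21a lie above 20 CPM in all libraries, Kif1a and Kif5c are at 0 in FH, and Kif26b is above 5 CPM in BM 3W only.

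Kif1a, the fast vesicle motor best known from axons (chromosome 1, 93015455 to 93102039), had 0 counts in all 4 fresh libraries. It stood at 0.406 and 1.56 CPM in BM 1D, 7.37 and 2.46 in BM 3D, 14.5 and 21.1 in BM 3W, 0.317 and 0.363 in LBDXL 3W and 32.8 and 21.4 in BM 3W Yap-/-. It was thus at least 74.9-fold higher in BM 3W than in FH, and fell by 5.69 ± 0.81 in LBDXL 3W against BM 3W (adjusted p = 7.18e-04). Between BM 3W Yap-/- and BM 3W it did not pass (0.60 ± 0.61, adjusted p = 0.473). Kif5c, a kinesin-1 heavy chain rich in neurons, had 0 counts in FH, 8.21 and 11.4 CPM in BM 1D, 3.52 and 4.88 in BM 3D, 11.3 and 10.3 in BM 3W, 0.529 and 0.181 in LBDXL 3W and 2.77 and 3.52 in BM 3W Yap-/-. It was at least 41.2-fold above FH in BM 1D and at least 45.4-fold in BM 3W. The 5 neuron markers summed to 56.4 and 59.0 CPM in FH, of which Syt1 held 56.4 and 58.6 while Snap25, Nefl and Elavl3 were at 0, and to 8.37 and 5.72 in BM 3W. Snap25 was above 0 in BM 3W (0.686 and 0.359 CPM) and BM 3W Yap-/- (0.729 and 0.402) only. The part of such cells in the levels of Kif1a and Kif5c was not tested.

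Kif26b (chromosome 1, 178529125 to 178932857), an atypical kinesin of Wnt5a signalling, stood at 3.42 and 2.37 CPM in FH and 2.55 and 3.52 in FH Yap-/-, at 0.135 and 0.104 in BM 1D and 0 and 0.148 in BM 3D, at 35.5 and 26.6 in BM 3W, 0 and 0.363 in LBDXL 3W and 0.194 and 0.453 in BM 3W Yap-/-. The BM 3W libraries are above and all other cultures below fresh cells. It fell by 4.52 ± 0.94 in BM 1D against FH (adjusted p = 0.0029) and was 3.42 ± 0.73 higher in BM 3W than in FH (0.00226). Against BM 3W it fell by 6.56 ± 0.88 in BM 3W Yap-/- (6.82e-04) and fell by 7.44 ± 0.95 in LBDXL 3W (2.07e-04). The ratio of BM 3W to BM 3D was 461 (95% counting interval 157 to 2.24e+03), with 3 counts in BM 3D. Stellate cell and fibroblast markers were also highest in BM 3W, with 10670 and 14690 CPM against 539 and 232 in LBDXL 3W and 495 and 433 in BM 3W Yap-/-, and their part in this result was not tested. Kif12, a kinesin linked to bile duct and kidney epithelium, stood at 1.10 and 2.04 CPM in BM 3W and at most 0.317 elsewhere, and was at least 9.22-fold lower in LBDXL 3W, where it had 0 counts, than in BM 3W.

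Of these 15 genes, 4 rose and 3 fell in BM 1D against FH, 5 and 3 in BM 3D, 7 and 3 in BM 3W, and 3 and 1 in LBDXL 3W. Over all genes 43.8, 40.5, 59.1 and 21.3% were called in these comparisons, so 7, 8, 10 and 4 calls of 15 are near the background. Against BM 3W, 4 rose and 5 fell in LBDXL 3W and 1 rose and 4 fell in BM 3W Yap-/-, with 44.8 and 31.6% of all genes called. By total counts those 6 pairs were 10 and 1, 8 and 1, 12 and 1, 4 and 1, 1 and 10, and 0 and 8. Kif2a, Kif5a and Kif16b passed in none of the comparisons. Among 14 tested kinesin light chains, adaptors and minus-end motors, 10 rose and 1 fell in BM 1D against FH (23.6% of all genes rose), 7 and 1 in BM 3D (22.5%), 8 and 1 in BM 3W (33%) and 6 and 0 in LBDXL 3W (11.7%). Klc1, a light chain of kinesin-1, rose by 2.31 ± 0.34 in BM 3W and Klc4, another, fell by 1.52 ± 0.34, and the dynein light intermediate chain Dync1li2 rose by 2.01 ± 0.18.

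Most alpha and beta tubulin genes rose within 1 day of culture (9 of 12 tested, with Tuba8 falling by 2.25 ± 0.52), and the summed FPKM of each family was above that of fresh cells in all cultures. The FPKM of alpha tubulins summed to 31.4 ± 1.90 in FH (mean ± SD, n = 2), 64.0 ± 1.21 in FH Yap-/-, 479 ± 24.9 in BM 1D, 394 ± 202 in BM 3D, 398.5 ± 61.7 in BM 3W, 663 ± 99.2 in BM 3W Yap-/- and 193 ± 41.9 in LBDXL 3W. For beta tubulins the sums were 27.7 ± 0.25 in FH, 63.7 ± 2.80 in FH Yap-/-, 844.5 ± 24.8 in BM 1D, 694 ± 287 in BM 3D, 582 ± 89.3 in BM 3W, 1122 ± 243 in BM 3W Yap-/- and 433 ± 84.0 in LBDXL 3W. The sums of every culture lie above those of every fresh library. Against FH, 4 of 5 tested alpha tubulins rose in BM 1D, 3 in BM 3D, 3 in BM 3W and 5 in LBDXL 3W (23.6, 22.5, 33 and 11.7% of all genes), and of 7 beta tubulins 5, 6, 7 and 6. Median log2 fold changes of the beta tubulins, with genes at 0 in FH set at their bound, were 4.21, 4.87, 4.68 and 3.59 in that order. The near-identical genes Tuba1a, Tuba1b and Tuba1c, and Tubb2a and Tubb2b, share stretches of sequence, so reads may have been split between them in ways the sources used here do not give.

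**Figure D4:**
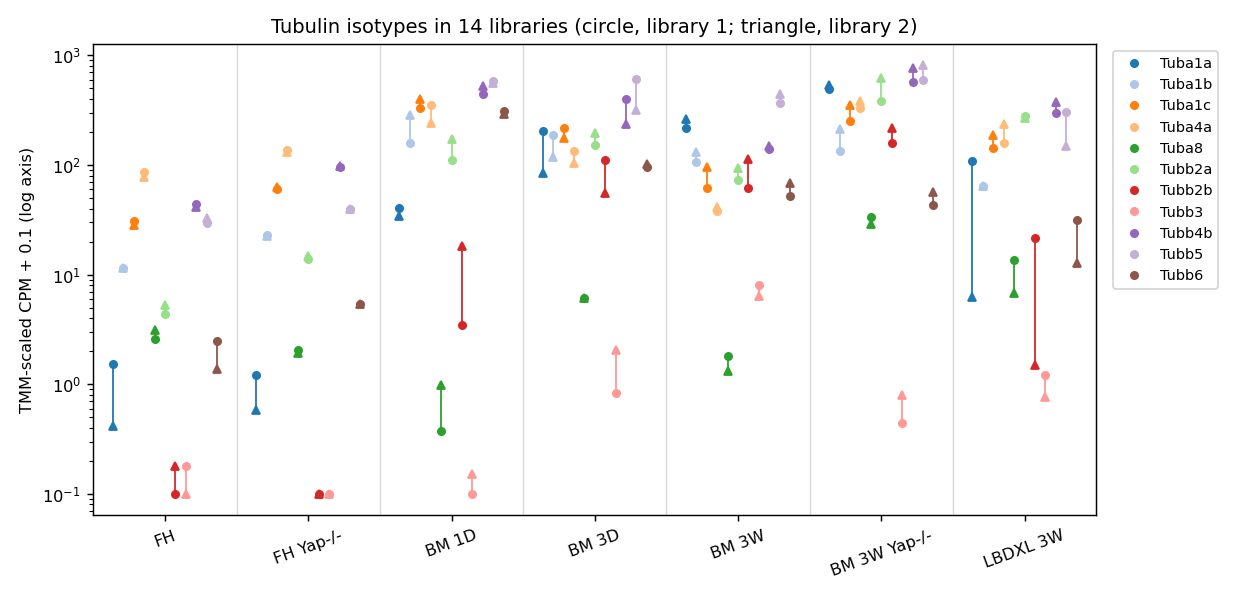
Level of the tubulin isotypes (TMM-scaled CPM + 0.1, log axis) in the 14 libraries, with a circle for library 1 and a triangle for library 2. The Tubb2a, Tubb4b and Tubb5 points of all cultures lie above those of FH.

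Tubb5, a broadly expressed beta tubulin (chromosome 17, 35833920 to 35838301), stood at 29.7 and 32.5 CPM in FH, 585 and 566 in BM 1D, 610.3 and 315 in BM 3D, 365 and 449 in BM 3W, 303 and 149 in LBDXL 3W and 599 and 811 in BM 3W Yap-/-. It rose by 4.21 ± 0.43 in BM 1D (adjusted p = 4.63e-05) and by 2.86 ± 0.40 in LBDXL 3W (8.92e-04). Every culture library lies above FH. Tubb6, among the beta tubulins with over 3 counts in FH, had the largest rise in BM 1D, from 2.39 and 1.27 CPM in FH to 313 and 294 in BM 1D (7.37 ± 0.49, adjusted p = 7.55e-06), then 95.8 and 103 in BM 3D, 52.6 and 67.8 in BM 3W, 31.2 and 12.8 in LBDXL 3W and 42.9 and 56.5 in BM 3W Yap-/-. Its fall from BM 1D to BM 3D (1.61 ± 0.37, adjusted p = 0.0315) was lost in a fit on these 4 libraries alone and without any of them. Tubb4b rose from 43.6 and 41.7 CPM in FH to 444 and 523 in BM 1D and 139 and 149.5 in BM 3W, and Tuba1b from 11.4 and 11.3 to 157 and 285 in BM 1D and 106 and 133 in BM 3W.

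Tuba1a and Tubb2b are isotypes best known from the developing brain. Tuba1a (chromosome 15, 98949847 to 98953501) stood at 1.43 and 0.317 CPM in FH, 40.5 and 34.2 in BM 1D, 205 and 83.6 in BM 3D, 216 and 265 in BM 3W, 109 and 6.10 in LBDXL 3W and 493 and 533 in BM 3W Yap-/-. The LBDXL 3W libraries differ widely, and library 2 is the lowest of all cultures. Its rise over FH was 8.10 ± 1.29 in BM 3W (adjusted p = 3.57e-04) and 6.03 ± 1.21 in LBDXL 3W (0.0058), the latter lost without FH 2 and in a fit on the compared groups alone. Tubb2b (chromosome 13, 34127008 to 34130354) had 1 count in FH in all, and stood at 3.39 and 18.1 CPM in BM 1D, 112 and 55.2 in BM 3D, 62.0 and 113 in BM 3W, 21.6 and 1.39 in LBDXL 3W and 159 and 216 in BM 3W Yap-/-. The ratio to FH was 2.25e+03 in BM 3W (95% counting interval 404 to 8.89e+04) and 257 in BM 1D (45.9 to 1.02e+04, a call lost without either FH library). Endothelial markers split the LBDXL 3W libraries in the same order, and their part in these values was not tested. Tubb3, the isotype used as a neuron marker, had 1 count in FH in all and 7.96 and 6.32 CPM in BM 3W, against 0.340 and 0.704 in BM 3W Yap-/-, a fall of 3.76 ± 0.79 (adjusted p = 0.00667) that was lost without BM 3W Yap-/- 1. Tubb4a had 0 counts in FH and 4.18 and 7.996 CPM in BM 3W, at least 25.6-fold higher, a call lost without either FH library.

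Between the cultures of 3 weeks, tubulins went both ways. Tuba4a, whose protein is made without the C-terminal tyrosine of most alpha tubulins, stood at 85.7 and 77.6 CPM in FH, 137 and 132 in FH Yap-/-, 353 and 243 in BM 1D, 134 and 103 in BM 3D, 37.6 and 41.6 in BM 3W, 158 and 237 in LBDXL 3W and 329 and 382 in BM 3W Yap-/-. BM 3W is the only group below FH. Tuba4a was higher than BM 3W by 3.17 ± 0.28 in BM 3W Yap-/- (adjusted p = 1.15e-04) and by 2.32 ± 0.27 in LBDXL 3W (1.38e-04), and its fall in BM 3W against FH (1.04 ± 0.27) turned to a rise by total counts and on FPKM. Tuba8, a divergent alpha tubulin, stood at 2.47 and 3.01 CPM in FH, 0.271 and 0.885 in BM 1D, 6.04 and 5.96 in BM 3D, 1.72 and 1.23 in BM 3W, 13.4 and 6.77 in LBDXL 3W and 33.4 and 28.9 in BM 3W Yap-/-. It rose over BM 3W by 4.40 ± 0.50 in BM 3W Yap-/- (adjusted p = 3.15e-04) and by 2.78 ± 0.47 in LBDXL 3W (9.77e-04). Tubb2a went from 4.29 and 5.14 CPM in FH to 110.0 and 173 in BM 1D, 73.4 and 93.0 in BM 3W, 282 and 266 in LBDXL 3W and 381 and 627 in BM 3W Yap-/-. It stood 2.60 ± 0.31 above BM 3W in BM 3W Yap-/- and 1.72 ± 0.30 in LBDXL 3W (adjusted p = 3.9e-04 and 0.00124).

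Tuba1c and Tubb4b were likewise higher in BM 3W Yap-/- than in BM 3W, by 1.93 ± 0.28 and 2.21 ± 0.29. In LBDXL 3W against BM 3W they passed by 1.07 ± 0.27 and 1.21 ± 0.28, a call lost by total counts and on FPKM. Tubb3, Tubb2b, Tubb6 and Tuba1b fell in LBDXL 3W against BM 3W, Tubb6 by 1.45 ± 0.37 (adjusted p = 0.00901, lost without BM 3W 2) and Tuba1b by 0.90 ± 0.32 (0.0423). The calls of Tuba1b and Tubb2b were each lost without any of several single libraries, among them either BM 3W library. Of the 5 alpha and 7 beta tubulins tested, together 5 rose and 4 fell in LBDXL 3W, and 5 rose and 1 fell in BM 3W Yap-/-, in both cases against BM 3W. Over all genes 21.1% rose and 23.7% fell in LBDXL 3W, and 15% rose and 16.6% fell in BM 3W Yap-/-. The gamma tubulin Tubg1 stood at 32.0 and 27.9 CPM in FH, 20.3 and 19.9 in BM 3W, 36.4 and 39.8 in LBDXL 3W and 45.97 and 42.4 in BM 3W Yap-/-. Its fall in BM 3W against FH (0.58 ± 0.21, adjusted p = 0.0349) turned to a rise by total counts and on FPKM.

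The mixture of isotypes shifted with culture. Of the summed alpha tubulin FPKM, Tuba4a held 51.1 and 49.8% in FH and 45.7 and 42.6% in FH Yap-/-, but 4.83 and 4.44% in BM 3W. It held 19.8 and 34.1% in LBDXL 3W and 15.5 and 16.1% in BM 3W Yap-/-. Tuba1c was first in BM 1D (45.8 and 46.4%), BM 3D (31.6 and 38.8%) and LBDXL 3W (33.5 and 46.6%). Tuba1a, at 1.21 and 0.44% in FH, was first in BM 3W (54.6 and 51.7%) and BM 3W Yap-/- (47.5 and 40.6%). Fresh cells, early cultures and BM 3W thus each had another leading alpha isotype. By counts without regard to length Tuba4a led in BM 1D 1 and in both LBDXL 3W libraries, and the largest shift of a mean share between counts and FPKM was 16.6 percentage points.

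Among beta tubulins, Tubb4b held 63.8 and 60.6% of the FPKM in FH and 69.4 and 70.0% in FH Yap-/-. It was first in 12 of 14 libraries, and in BM 3W Tubb5 was first, with 42.7 and 42.2% against 25.5 and 21.6% for Tubb4b. Tubb6 held 21.8 and 18.9% in BM 1D, against 2.83 and 1.58% in FH and 8.15 and 8.48% in BM 3W. Tubb2a held 34.5 and 35.4% in LBDXL 3W and 24.97 and 29.5% in BM 3W Yap-/-, against 13.2 and 13.4% in BM 3W. By counts Tubb5 was first in all culture libraries but LBDXL 3W 2.

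**Figure D5:**
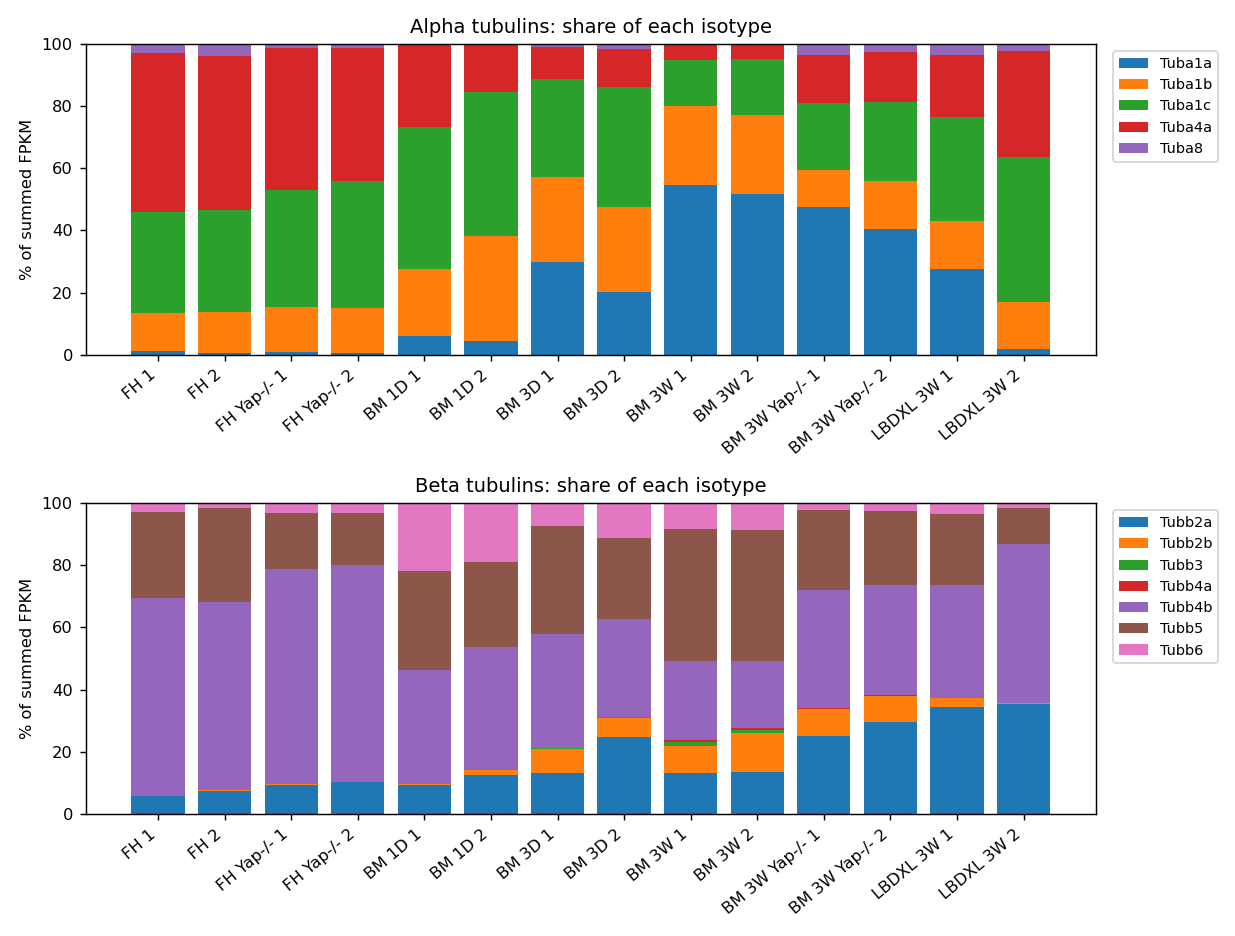
Share of each isotype in the summed FPKM of alpha tubulins (top) and beta tubulins (bottom), in percent, for the 14 libraries, with isotypes of at least 0.5% in some library. Tuba4a fills about 50% of the alpha bar in FH (51.1 and 49.8%) and under 5% in BM 3W, where Tuba1a is the widest band (54.6 and 51.7%).

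Loss of Yap in fresh cells passed for 1 gene of the set. Tubb2a stood at 13.9 and 14.7 CPM in FH Yap-/- against 4.29 and 5.14 in FH (log2 1.60 ± 0.32, adjusted p = 0.0465), and the call was lost without either library of FH, FH Yap-/- or BM 3W. Other tubulins stood higher without passing, Tubb4b at 95.2 and 97.0 against 43.6 and 41.7 CPM (1.17 ± 0.28, adjusted p = 0.107) and Tuba1c at 60.1 and 62.9 against 30.9 and 28.2 (1.06 ± 0.28, 0.137). In a fit on these 4 libraries alone, which replicate far more closely than the cultures, 15 of 30 tested genes of the set passed, 11 higher and 4 lower. In that fit 37.4% of all genes passed, 18.1% higher and 19.4% lower.

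The Yap-/- difference in culture departed from that in fresh cells for 6 of the 50 genes (16.9% of all genes), 3 upward (Tuba8, Tuba4a and Kif21a, against 8.04% of all genes) and 3 downward (Kif26b, Kif3c and Kif3a, against 8.84%). By total counts 2 rose and 6 fell. For Tuba4a the Yap-/- libraries stood 0.72 ± 0.26 above FH in fresh cells without passing and 3.17 ± 0.28 above BM 3W in culture. For Kif3c they stood 1.86 ± 0.54 above FH without passing and fell by 2.19 ± 0.43 in culture.

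Other genes that act on microtubules are read against the shares of all genes that rose over FH, 23.6% in BM 1D, 22.5% in BM 3D, 33% in BM 3W and 11.7% in LBDXL 3W. Of 17 microtubule-associated proteins, 9 rose and 1 fell in BM 1D, 9 and 2 in BM 3D, 10 and 2 in BM 3W and 5 and 0 in LBDXL 3W, all against FH, with Map4 at 60.0 and 58.9 CPM in FH and 259 and 251 in BM 3W. Of 15 genes that fold or modify tubulin, 5, 6, 6 and 3 rose and 0, 0, 1 and 0 fell, among them the tyrosine ligase Ttl (1.82 ± 0.25 in BM 3W). In the gamma-tubulin ring, 1 of 8 genes rose and 2 fell in BM 3W against FH, where 59.1% of all genes were called. Kif1bp lay between 11.7 and 24.8 CPM in all libraries and passed in no comparison.

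Symbols and counts were taken as deposited, and 9 of the 55 genes overlap another protein-coding gene in RefSeq. Among them are Kif18a, Kif20a, Kif7, Kif21a, Tuba4a and Tubb4b, and the sources used here do not give the strand setting of the counting, so reads from the partner gene cannot be told apart in these.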

How the data were processed

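RNA of 14 libraries was extracted with RNeasy columns and made into stranded, paired-end mRNA libraries, per the labels' protocols. The authors deposited raw read counts and FPKM values for each gene. The submitters' processing notes name Trimmomatic, HISAT2, Cufflinks, HTSeq, DESeq and the build GRCm38.p6, with no versions or settings. Counts of 15501005 to 21220365 per library set the precision.

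Groups were taken from the sample labels. Genes passing filterByExpr (14100) were fitted in edgeR 4.0.16 (R 4.3.3) with TMM scaling and the quasi-likelihood F-test, all 14 libraries in 7 groups, and p-values were Benjamini-Hochberg adjusted over all of them. Standard errors are the fold change over the root of F. The filter and test were also run on simulated counts with the same spread set for every gene and library. The cultures vary more than the fresh cells, so that run does not show how the test behaves on them. FPKM were used for levels between genes and for isotype shares. The main result was set beside DESeq2 1.42.0, other scalings and filters, limma 3.58.1 on log2(FPKM + 1) and log2(FPKM + 0.1), each library left out, and the replicate number as a block. A gene with 0 counts in a group is compared with a floor of 3 counts per library, and with 1 to 3 counts by an exact 95% counting interval. Every gene of the set may be named, in order of role. Values by library are for those with the smallest adjusted p in a comparison or the highest FPKM in their class, plus some chosen after their values were seen, and other genes come from the context lists. Genes and lists were chosen with earlier results of these data known. Same-numbered libraries deviated together (r over 0.1) in 5 of 21 pairs of groups, each of them a pair of cultures. The highest r was 0.461, for BM 1D with BM 3D. These values do not settle whether the numbers pair the libraries.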

Additional observations from a re-analysis of the deposited data

Results flagged for a closer look

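For 6 genes the log2 difference between Yap-/- and control cells differed between 3-week BM culture and fresh cells by the interaction test in edgeR's quasi-likelihood fit. The difference of differences was 4.94 ± 0.67 for Tuba8 (adjusted p = 0.00191), 2.45 ± 0.38 for Tuba4a (0.00299) and 1.42 ± 0.33 for Kif21a (0.016). It was -6.63 ± 1.10 for Kif26b (0.00431), -4.05 ± 0.69 for Kif3c (0.00485) and -1.50 ± 0.44 for Kif3a (0.041). The call of Kif3a was lost without either BM 3W, FH or FH Yap-/- library and without BM 3W Yap-/- 2. The call of Kif21a was lost by total counts, on FPKM, and without BM 3W 2 or either FH or FH Yap-/- library.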

How the results depend on the processing

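Calls kept under every alternative numbered 13 of 21 (BM 1D), 20 of 31 (BM 3D), 22 of 38 (BM 3W) and 7 of 18 (LBDXL 3W) against FH. From BM 1D to BM 3D 0 of 13 were kept. With single libraries left out, calls ran from 18 to 23, 22 to 34, 26 to 40 and 9 to 19 against FH in the same order. They ran from 1 to 16 for BM 3D against BM 1D, 5 to 15 for BM 3W against BM 3D, 18 to 32 for LBDXL 3W and 10 to 23 for BM 3W Yap-/- against BM 3W, 0 to 2 for FH Yap-/- against FH and 4 to 9 for the interaction. Fits of the compared groups alone called 9 (LBDXL 3W against FH, 18 in the main analysis), 0 (BM 3D against BM 1D, 13), 15 (FH Yap-/- against FH, 1) and 14 (interaction, 6). DESeq2 called 4 for FH Yap-/- against FH. On log2(FPKM + 1) the interaction had 11, on log2(FPKM + 0.1) 14 and on log2(FPKM + 1) without a filter 19. BM 3D against BM 1D had 8 on log2(FPKM + 0.1) and 4 on log2(FPKM + 1) without a filter, where BM 3W against BM 3D had 20. Leaving out BM 3W 2 and LBDXL 3W 1 together, chosen after seeing the data, gave 7 for BM 3W against BM 3D and 2 for FH Yap-/- against FH. With the replicate number as a block, calls were 24, 32, 40 and 18 against FH in the order above, 13 and 13 between times in BM, 32 and 23 against BM 3W, 1 for FH Yap-/- and 6 for the interaction. Whether the numbers pair the libraries is not known.

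Some log2 values changed sign, given here by total counts, then on log2(FPKM + 1) with and without the filter, then on log2(FPKM + 0.1). Kif1b against FH was 0.16, 0.050 and 0.053 in BM 1D and 0.26, 0.22 and 0.23 in BM 3D. Kif13a was 0.82, 0.46 and 0.63 in BM 1D and 1.21, 0.89 and 1.17 in BM 3W. Kif16b was 0.79, 0.50 and 0.71 in BM 3D and 1.12, 0.72 and 1.00 in BM 3W. Kif21a in BM 3D was 0.18, 0.22 and 0.25. In BM 3W Kif13b was 0.15, 0.032 and 0.037, Tuba4a 0.25, 0.20 and 0.21 and Tubg1 0.72, 0.74 and 0.82, and in BM 1D Tubg1 was 0.64 by total counts. Against BM 3W, Kif1c in LBDXL 3W was -0.26, -0.30 and -0.30, Kif16b there -0.80, -0.44 and -0.59, and Kif3b in BM 3W Yap-/- -0.58, -0.44 and -0.49. The interaction of Tubg2 was -0.64 on unfiltered log2(FPKM + 1). The cause was not tested. Genes with few counts, such as Kif7, Kif12, Kif27 and Tubg2, are limited by depth.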
